A study of Mus musculus with 6 samples.

Results

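The cholesterol synthesis and transport genes described here are 33 genes found by symbol in the deposited count table, out of 50559 genes in that table, and all 33 were among the 20257 genes with enough reads to test. They comprise 17 enzymes of cholesterol synthesis, 5 genes of the SREBP system that sets the rate of synthesis, and 11 genes of cholesterol efflux, transport and storage. Bulk RNA-seq was performed on hypothalamus of mice with a deletion of SRC-1, the nuclear receptor coactivator encoded by Ncoa1 (3 knockout libraries), and of wild-type control mice (3 libraries). The labels state neither strain, sex nor age of the mice, nor the allele or extent of the deletion, nor whether each library is 1 animal; p-values are therefore set against the variation among these libraries alone, which may be technical. No cell type was sorted, and each value is an average over neurons, glia and other cells of the dissected tissue.

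Cells make cholesterol from acetyl-CoA through mevalonate, farnesyl diphosphate, squalene and lanosterol. When sterols run low in the endoplasmic reticulum, SCAP escorts SREBP transcription factors to the Golgi, where they are cut free to switch on the enzymes of synthesis, while INSIG proteins hold them back when sterols are plentiful. When oxysterols accumulate, the liver X receptors (LXR) raise genes of cholesterol export. Brain cholesterol is made locally, much of it for myelin, and astrocytes supply neurons with cholesterol on lipoproteins that carry apolipoprotein E.

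The knockout libraries held 42743082, 39341074 and 46755553 counts assigned to genes, and the wild-type libraries held 40371284, 36613507 and 42191925. Ncoa1 had 1692, 1478 and 1766 counts in knockout hypothalamus and 5180, 4630 and 5406 counts in wild-type hypothalamus, so its level followed the labels, and it fell by 1.71 ± 0.07 on the log2 scale (SE; adjusted p = 1.87e-06, edgeR's quasi-likelihood test with Benjamini-Hochberg adjustment over all genes tested). Neuropeptide genes that mark the hypothalamus were present in every library, at uneven levels. Pmch, the melanin-concentrating hormone precursor, had 10485, 16181 and 12910 counts in knockout libraries and 5987, 10250 and 10900 in wild-type libraries. Wild-type 1 stood apart: it had the lowest Pmch and Hcrt and the highest Trh and Oxt of the 6 libraries. Hcrt, the orexin precursor, had 175.1, 176.9 and 146.3 CPM in knockout libraries and 66.6, 142.5 and 151.8 CPM in wild-type libraries (CPM is the count scaled to library size with TMM factors). Marker genes of other cells differed between the groups. All 10 mature oligodendrocyte markers were higher in every knockout library than in any wild-type library, with 6 of 10 past the adjusted threshold of 0.05. Of 10 tanycyte and ependyma markers, 9 fell past it, with a median log2 fold change of -1.61. Summed meningeal fibroblast markers ran from 53.7 to 59.8 CPM in knockout and from 61.3 to 228.1 CPM in wild-type libraries, with 1 of 7 past the threshold, lower, as was 1 of 4 tested pituitary markers. Of the markers of neurons (8), oligodendrocyte precursors (5), choroid plexus (6), microglia (6) and endothelium (5), none passed it in edgeR, and 3, 3, 3, 2 and 0 had an unadjusted p under 0.05. The oligodendrocyte and tanycyte lists are set beside the cholesterol genes below. In bulk tissue, fewer cells of a type and less RNA per cell cannot be told apart.

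None of the 33 genes passed an adjusted p of 0.05, in either direction, while 169 of all genes tested (0.834%) did, 0.242% higher and 0.592% lower in knockout hypothalamus. The lowest adjusted p was 0.0693, for Abca1 (edgeR's quasi-likelihood test with Benjamini-Hochberg adjustment). At an unadjusted p under 0.05 there were 6 of the 33 (18.2%), 3 higher and 3 lower in knockout hypothalamus, beside 13% of all genes tested (5.75% higher and 7.21% lower). The 6 were Abca1, Apoe and Srebf1, with lower values in knockout hypothalamus, and Npc1, Hmgcs1 and Idi1, with higher values. Other tools drew the line differently on the same counts. DESeq2 called 5 of the 33 (15.2%, beside 4.49% of all genes it adjusted), namely Abca1, Apoe, Srebf1, Npc1 and Hmgcs1, limma-voom called 0 (0.508% of all genes), and limma-voom with sample quality weights called 1, Apoe (1.98% of all genes). Without a filter on low counts, edgeR called the same 5 genes as DESeq2 (2.65% of all genes). In 9 of the 33 genes (27.3%) the groups did not overlap, 6 higher and 3 lower in knockout hypothalamus, beside 17.6% of all genes (8.58% higher and 9.03% lower).

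The differences were small and bounded. The log2 fold changes of knockout over wild type had a median of 0.06 and ran from -0.54 to 0.30, beside a median of 0.00 over all genes tested. The 95% interval lay within 0.5 on the log2 scale on either side of 0 for 30 of the 33 genes and within 1 for all 33. The interval included 0 for 27 genes.

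**Figure D1:**
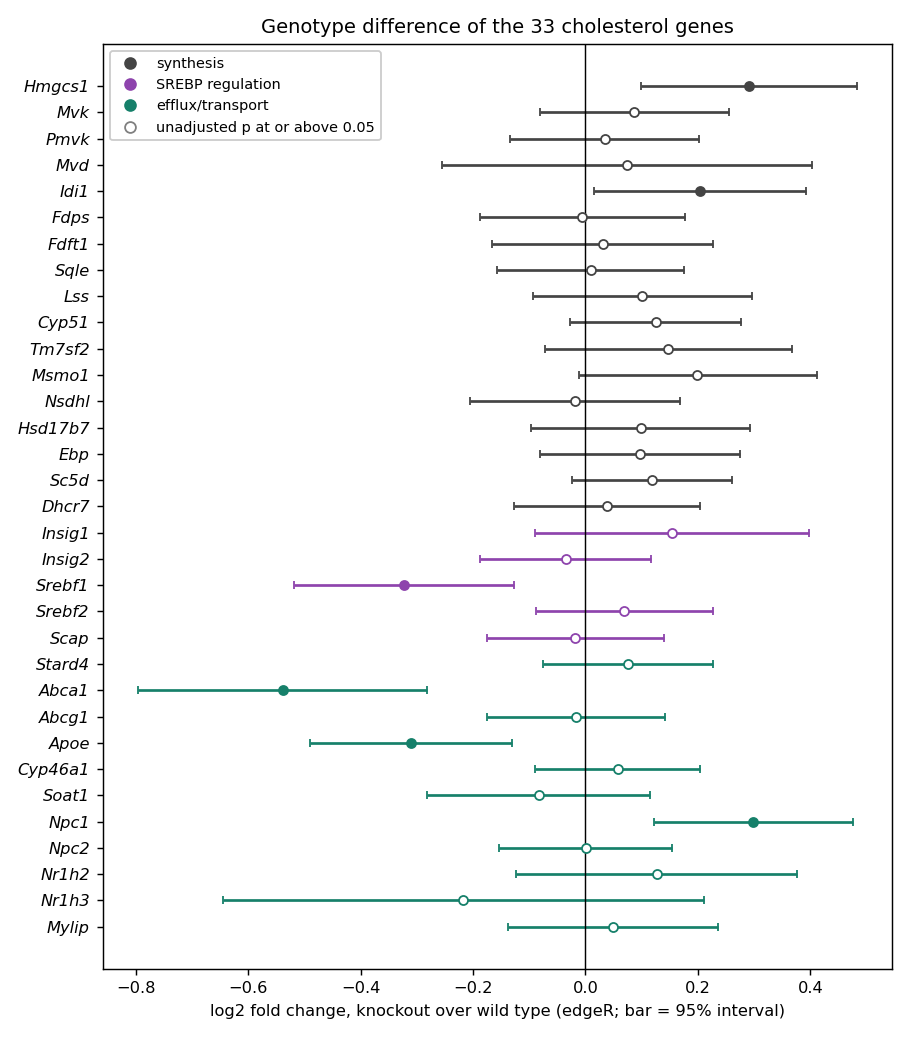
Log2 fold change of knockout over wild-type hypothalamus (x axis) for each of the 33 genes (y axis), with its 95% interval from edgeR as a bar, coloured by subgroup; filled points have an unadjusted p under 0.05. Abca1 at -0.54, Srebf1 at -0.32 and Apoe at -0.31 lie left of 0 with their whole interval, and Npc1 at 0.30, Hmgcs1 at 0.29 and Idi1 at 0.20 lie right of it.

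The synthesis enzymes had higher values in knockout hypothalamus in 15 of 17 cases, with a median log2 fold change of 0.10 and a range of -0.02 to 0.29, and none passed the adjusted threshold. A positive log2 fold change was found for 51.1% of all genes tested. In 5 of 17 enzymes (Hmgcs1, Idi1, Cyp51, Ebp and Sc5d) every knockout library was above every wild-type library, an arrangement that 8.58% of all genes tested showed. For Cyp51 this was close to a tie, with knockout 2 at 89.386 CPM and wild-type 3 at 89.38 CPM. The summed level of the 17 enzymes ran from 1129 to 1196 CPM in knockout libraries and from 976 to 1155 CPM in wild-type libraries, so the ranges overlapped. The median stayed above 0 when any 1 library was left out, but its size and the tally of genes moved with single wild-type libraries: without wild-type 1, 11 of 17 enzymes were higher with a median of 0.06, and without wild-type 3, 17 of 17 were higher with a median of 0.14.

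Hmgcs1 encodes the cytosolic HMG-CoA synthase, which makes the precursor of mevalonate, and is a textbook SREBP target. It lies on chromosome 13, from 120151887 to 120169796 on the plus strand of GRCm39. Hmgcs1 had 277, 297 and 313 CPM in knockout hypothalamus, against 215, 250 and 260 CPM in wild-type hypothalamus. The groups did not overlap, with the lowest knockout library above the highest wild-type library. The log2 fold change was 0.29 ± 0.09 (SE; 95% interval 0.10 to 0.48, a fold of 1.22), with an unadjusted p of 0.00684 and an adjusted p of 0.164 by edgeR's quasi-likelihood test. Per kilobase of exon, it had the highest level of the synthesis enzymes, at 70.2 CPM per kb in knockout and 57.4 CPM per kb in wild-type hypothalamus. Of its longest GENCODE transcript, 22.7% matched transcripts of other genes, so part of its counts may be shared.

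The window of 250 bases before the annotated Hmgcs1 start is shown because it was the one window among these genes with a match to the sterol regulatory element searched for. It is the RefSeq sequence at chr13:119690101-119690350 of GRCm38.p6, plus strand, and capitals mark TCACNCCAC on either strand, the pattern recognised by SREBP, and CCAAT on either strand, the box bound by NF-Y.
Hmgcs1: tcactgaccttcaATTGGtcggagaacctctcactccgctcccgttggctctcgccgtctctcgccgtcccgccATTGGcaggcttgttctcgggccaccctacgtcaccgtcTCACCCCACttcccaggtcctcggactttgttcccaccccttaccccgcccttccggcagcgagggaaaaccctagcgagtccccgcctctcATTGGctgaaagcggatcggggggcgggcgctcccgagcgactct
TCACCCCAC begins 137 bases before the start, and CCAAT matches on the opposite strand begin 237, 176 and 45 bases before it. TCACNCCAC was found in 1 of the 27 listed genes with a window (3.7%), beside 1.22% of 27025 genes. CCAAT on either strand was found in 14 of 14 synthesis enzymes, 4 of 5 SREBP genes and 4 of 8 efflux and transport genes with a window, beside 37.5% of all genes. Some genes have several windows. Per window the shares were 82.4%, 50% and 36.4% in that order, beside 33.8% of all windows. A match describes letters only and is no measure of binding.

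The remaining enzymes of the mevalonate steps stood closer to equality. Idi1, the isomerase of isopentenyl diphosphate (chromosome 13, 8935642 to 8942432, plus strand), had 16.3, 15.7 and 17.5 CPM in knockout hypothalamus, against 13.4, 14.8 and 14.6 CPM in wild-type hypothalamus. The groups did not overlap; the log2 fold change was 0.20 ± 0.09 (95% interval 0.02 to 0.39), with an unadjusted p of 0.0362 and an adjusted p of 0.338 by edgeR. Of the longest Idi1 transcript in GENCODE, 33.3% matched transcripts of other genes, pseudogenes of Idi1 among them, so its reads may be split between copies. The mevalonate kinase Mvk had a log2 fold change of 0.09 ± 0.08, the phosphomevalonate kinase Pmvk 0.03 ± 0.08, the diphosphate decarboxylase Mvd 0.07 ± 0.15 and the farnesyl diphosphate synthase Fdps -0.01 ± 0.08. All 4 intervals included 0. Mvd shares 36.2% of its exon bases with genes on the opposite strand, and Fdps matched pseudogenes over 50.6% of its transcript, so both counts are uncertain.

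At the squalene steps, Fdft1 (squalene synthase), Sqle (squalene epoxidase, a rate-limiting step of the pathway) and Lss (lanosterol synthase) had log2 fold changes of 0.03 ± 0.09, 0.01 ± 0.08 and 0.10 ± 0.09. Sqle had 89.6, 93.0 and 96.9 CPM in knockout hypothalamus and 85.0, 92.0 and 100.8 CPM in wild-type hypothalamus. The knockout values of Sqle lay inside the wild-type range. The counts of Fdft1 are uncertain, since 59.2% of its transcript matched a pseudogene or its neighbour Ctsb.

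From lanosterol to cholesterol, 7 of 8 enzymes had higher values in knockout hypothalamus, with a median log2 fold change of 0.11. Msmo1, the methylsterol monooxygenase, was nearest to the unadjusted threshold in this stretch. Msmo1 had 103.8, 108.2 and 109.6 CPM in knockout hypothalamus, against 78.8, 97.3 and 104.0 CPM in wild-type hypothalamus. The highest wild-type library reached above the lowest knockout library by under 1 CPM, and the log2 fold change was 0.20 ± 0.10 (unadjusted p = 0.0622, adjusted p = 0.419, edgeR). The lanosterol demethylase Cyp51 had 91.5, 89.4 and 99.3 CPM in knockout and 81.4, 86.2 and 89.4 CPM in wild-type hypothalamus, with a log2 fold change of 0.12 ± 0.07. The desaturase Sc5d had 0.12 ± 0.06, the sterol reductase Tm7sf2 0.15 ± 0.10, the ketosteroid reductase Hsd17b7 0.10 ± 0.09, the sterol isomerase Ebp 0.10 ± 0.08, the sterol reductase Dhcr7 0.04 ± 0.07 and the decarboxylating dehydrogenase Nsdhl -0.02 ± 0.08. None of these 8 enzymes passed an unadjusted p of 0.05. Of the longest GENCODE transcripts of Cyp51 and Dhcr7, 28.6% and 22.4% matched transcripts of other genes, so part of their counts may be shared.

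**Figure D2:**
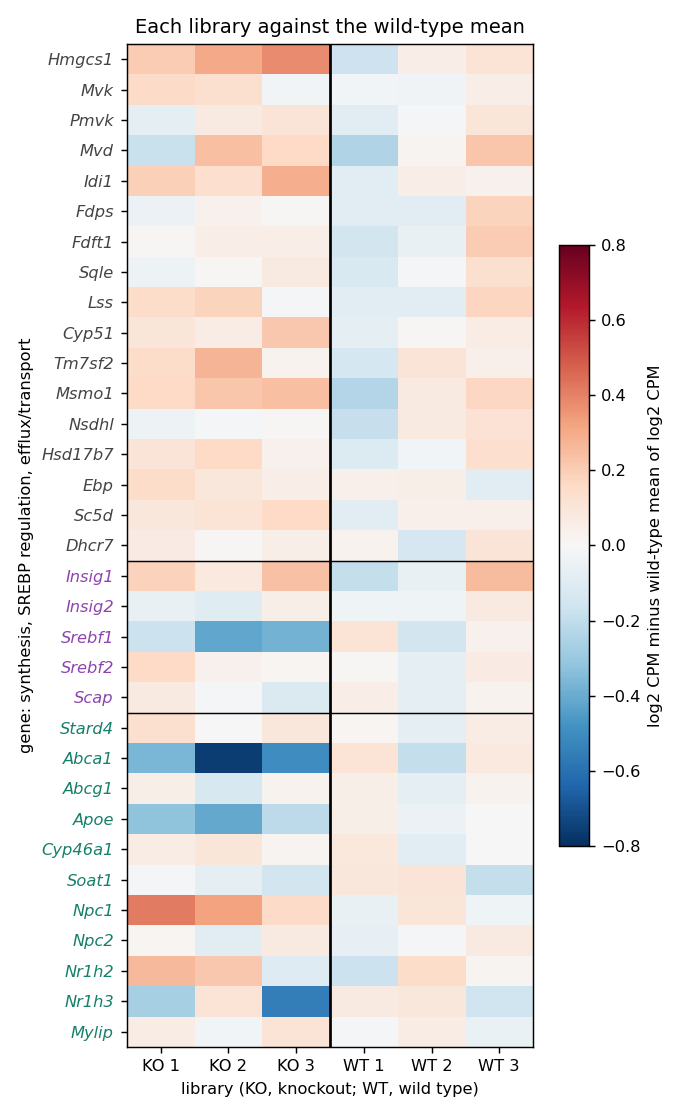
Log2 CPM of each gene (rows, by subgroup) in each library (columns, knockout 1 to 3 and then wild-type 1 to 3) minus the wild-type mean of log2 CPM, as colour. Wild-type 1 is the lowest wild-type library in 14 of 17 synthesis genes, while Abca1, Apoe and Srebf1 are below the wild-type mean in every knockout library.

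Within the wild-type group, libraries 1 and 3 differed in the synthesis genes by more, in the median, than the genotype means did. This did not hold for every enzyme: wild-type 3 exceeded wild-type 1 by 0.275 for Hmgcs1 and 0.123 for Idi1 on the log2 scale. Their genotype differences were 0.29 and 0.20. Differences between single libraries and between means of 3 libraries are unlike measures. Wild-type 1 was the lowest of all 6 libraries in 14 of 17 enzymes, and over all genes tested it was the lowest in 3537 of 20257. Wild-type 3 was above wild-type 1 in 16 of 17 enzymes, by a median of 0.25 on the log2 scale, against a median genotype difference of 0.10. The mean log2(CPM + 1) of the 17 enzymes, relative to the wild-type mean, was 0.06, 0.12 and 0.10 in the knockout libraries and -0.10, 0.00 and 0.10 in the wild-type libraries. Wild-type 1, the lowest here, was also the library with the lowest Pmch and Hcrt, and the part of this in the enzyme values was not tested. Wild-type 3 stood among the knockout libraries, above knockout 1. The mature oligodendrocyte markers, of the cells that make myelin, summed to 6653 to 8900 CPM in knockout libraries and 4093 to 5233 CPM in wild-type libraries, and no marker was at 0 in any library. Their median log2 fold change was 0.71, beside 0.10 for the synthesis enzymes, and their part in the values of the enzymes was not tested.

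Among the SREBP genes, Srebf1 stood apart and the other 4 did not. Srebf1 encodes SREBP1, the factor that mainly drives fatty acid synthesis, and one of its promoters is a textbook LXR target. It lies on chromosome 11, from 60089910 to 60113407 on the minus strand of GRCm39. Srebf1 had 99.0, 83.7 and 86.1 CPM in knockout hypothalamus, against 120.8, 100.9 and 114.5 CPM in wild-type hypothalamus. The groups did not overlap, although knockout 1 and wild-type 2 were within 2 CPM of each other. The log2 fold change was -0.32 ± 0.09 (95% interval -0.52 to -0.13, a fold of 0.799), with an unadjusted p of 0.00416 and an adjusted p of 0.133 by edgeR.

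Srebf2, which encodes the SREBP that mainly drives cholesterol synthesis, had the highest level per length of the group, at 42.6 CPM per kb in knockout and 40.6 CPM per kb in wild-type hypothalamus. Srebf2 had 254, 233 and 231 CPM in knockout hypothalamus and 230, 216 and 238 CPM in wild-type hypothalamus. The groups overlapped, and the log2 fold change was 0.07 ± 0.07 (adjusted p = 0.78, edgeR). Insig1, itself a textbook SREBP target, had 87.9, 81.7 and 91.1 CPM in knockout and 67.7, 74.2 and 92.3 CPM in wild-type hypothalamus, with a log2 fold change of 0.15 ± 0.11 and overlapping groups. As with most synthesis enzymes, wild-type 1 was the lowest library and wild-type 3 stood beside the knockout libraries. Insig2, the second INSIG gene, and Scap, the SREBP escort, had log2 fold changes of -0.04 ± 0.07 and -0.02 ± 0.07. Of the longest GENCODE transcripts of Srebf2 and Scap, 19% and 17.3% matched transcripts of other genes.

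**Figure D3:**
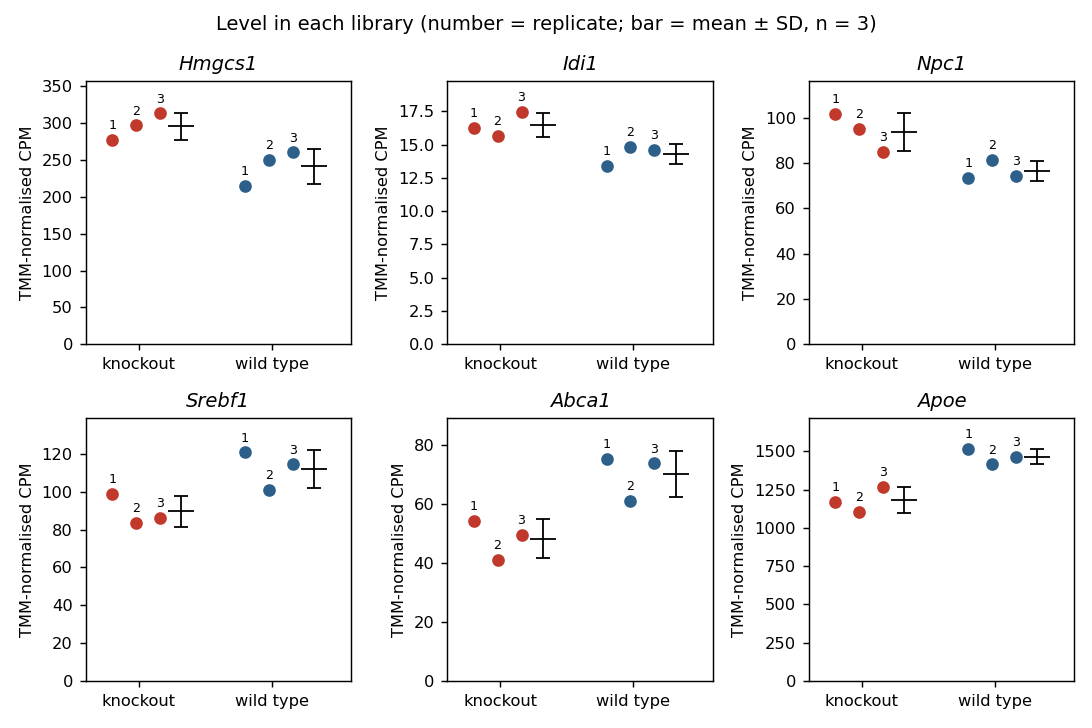
TMM-normalised CPM (y axes, from 0) of the 6 genes with an unadjusted p under 0.05 in each knockout and wild-type library; points are libraries and bars beside them the mean with SD (n = 3 each). In each of the 6 panels the knockout and wild-type points do not overlap, with Abca1 at 41.1 to 54.0 CPM in knockout and 61.0 to 75.2 CPM in wild-type hypothalamus as the widest relative gap.

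Abca1 had the largest difference of the 33 genes. It encodes the transporter that loads cholesterol and phospholipid onto lipid-poor apolipoproteins, and it is a textbook LXR target. It lies on chromosome 4, from 53030789 to 53159988 on the minus strand of GRCm39. Abca1 had 54.0, 41.1 and 49.4 CPM in knockout hypothalamus, against 75.2, 61.0 and 73.6 CPM in wild-type hypothalamus, or 48.2 ± 6.58 and 69.9 ± 7.75 CPM (SD, n = 3 each). The highest knockout library was below the lowest wild-type library. The log2 fold change was -0.54 ± 0.11 (95% interval -0.80 to -0.28, a fold of 0.689), with an unadjusted p of 0.00103, rank 302 of 20257, and an adjusted p of 0.0693 by edgeR. Leaving out 1 library at a time kept Abca1 lower in knockout hypothalamus, with adjusted p between 0.0471 (without wild-type 2, where 0.603% of all genes were called) and 0.194 (without wild-type 1).

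Apoe encodes apolipoprotein E, the main lipoprotein component made in the brain, where it comes mostly from astrocytes and also from microglia. It lies on chromosome 7, from 19430169 to 19434326 on the minus strand. Apoe had 1171, 1102 and 1268 CPM in knockout hypothalamus, against 1514, 1414 and 1464 CPM in wild-type hypothalamus. The groups did not overlap, and the gap between them was wider than the range of the wild-type libraries but narrower than that of the knockout libraries. The log2 fold change was -0.31 ± 0.08 (95% interval -0.49 to -0.13, a fold of 0.806), with an unadjusted p of 0.0031 and an adjusted p of 0.114 by edgeR. Apoe was by far the most abundant of the 33 genes per length, at 484 CPM per kb in knockout and 600.0 CPM per kb in wild-type hypothalamus, and took 44.8% ± 1.61 of the summed CPM per kb of all 33 genes in knockout and 51.6% ± 1.85 in wild-type libraries (SD, n = 3 each).

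The summed level of the 11 efflux and transport genes, most of it Apoe, ran from 1627 to 1795 CPM in knockout libraries and from 1939 to 2054 CPM in wild-type libraries. Gene by gene there was no such shift. In knockout hypothalamus 6 of the 11 had higher and 5 lower values, with a median log2 fold change of 0.001. Summed astrocyte markers, from 8 genes with none at 0, ran from 3677 to 3982 CPM in knockout libraries. In wild-type libraries they ran from 3944 to 3984 CPM, so these ranges overlapped. Of the 8 markers, 4 had higher and 4 lower values in knockout hypothalamus, with a median log2 fold change of -0.018. In edgeR 0 of 8 passed the adjusted threshold, and 3 had an unadjusted p under 0.05, all higher. Summed microglia markers ran from 195.6 to 221.6 CPM in knockout and from 180.5 to 199.4 CPM in wild-type libraries. Summed tanycyte and ependyma markers ran from 68.7 to 82.6 CPM in knockout libraries, against 179 to 198 CPM in wild-type libraries. The part of tanycyte and ependyma content in the values of Apoe, Abca1 and Srebf1 was not tested.

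**Figure D4:**
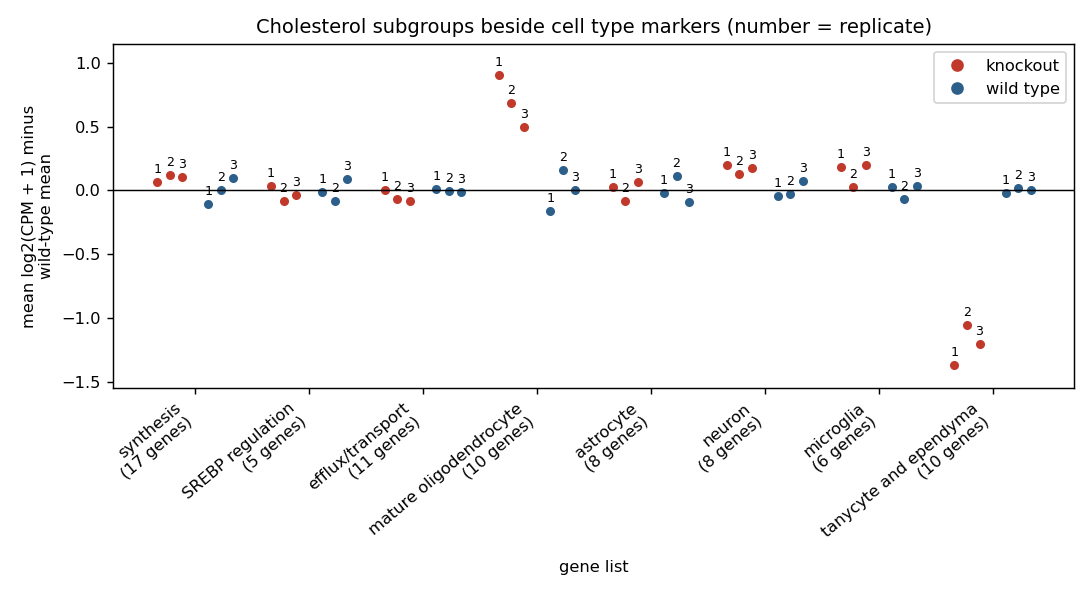
Mean log2(CPM + 1) of each gene list minus its wild-type mean (y axis) for each library, with knockout and wild-type points side by side and the replicate number beside each point. The 3 cholesterol subgroups lie between -0.10 and 0.12, while mature oligodendrocyte markers lie at 0.50 to 0.91 and tanycyte and ependyma markers at -1.37 to -1.06 in knockout libraries.

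Among the 33 genes, 5 are textbook LXR targets, a set that was not planned and was drawn up with the values known. A tally of their signs is therefore no test. Abca1, Apoe and Srebf1, described above, had lower values in knockout hypothalamus, while the intervals of Abcg1 and Mylip spanned equality. Beside Abca1, Apoe and Srebf1, the 5 targets include Abcg1, which passes cholesterol to lipoprotein particles, and Mylip, a ubiquitin ligase that degrades lipoprotein receptors. Abcg1 had 86.7, 76.6 and 85.6 CPM in knockout hypothalamus and 86.8, 79.4 and 85.6 CPM in wild-type hypothalamus, a log2 fold change of -0.02 ± 0.07 with a 95% interval of -0.18 to 0.14. The sign of Abcg1 differed in 2 of 15 alternative settings. Mylip had a log2 fold change of 0.05 ± 0.08. The Abcg1 interval did not reach that of Abca1, which ended at -0.28; the difference between the genes was not tested. The receptor genes themselves overlapped between groups: Nr1h2 (LXR beta) had 44.9, 43.5 and 35.0 CPM in knockout and 33.3, 41.5 and 38.1 CPM in wild-type hypothalamus, and Nr1h3 (LXR alpha), the lowest of the 33 genes, had 2.98, 3.86 and 2.43 CPM in knockout and 3.75, 3.80 and 3.20 CPM in wild-type hypothalamus. Their log2 fold changes were 0.13 ± 0.11 and -0.22 ± 0.19.

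The windows of 250 bases before the start of Abca1 (chr4:53159896-53160145) and before 1 of the annotated starts of Srebf1 (chr11:60210472-60210721), both minus strand of GRCm38.p6 from RefSeq, are shown because these were the windows of the listed genes that matched a pair of spaced hexamer-like repeats, the kind of element LXR binds with its partner RXR. Capitals mark GGTNA followed, after 5 bases of any kind, by a further GGTNA, on either strand, CACGTG (an E-box, the same on both strands) and CCAAT on either strand.
Abca1: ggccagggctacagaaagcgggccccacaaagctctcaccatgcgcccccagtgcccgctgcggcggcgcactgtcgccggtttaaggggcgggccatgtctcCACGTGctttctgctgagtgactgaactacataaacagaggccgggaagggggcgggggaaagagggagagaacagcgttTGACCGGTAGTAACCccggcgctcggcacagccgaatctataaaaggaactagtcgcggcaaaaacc
Srebf1: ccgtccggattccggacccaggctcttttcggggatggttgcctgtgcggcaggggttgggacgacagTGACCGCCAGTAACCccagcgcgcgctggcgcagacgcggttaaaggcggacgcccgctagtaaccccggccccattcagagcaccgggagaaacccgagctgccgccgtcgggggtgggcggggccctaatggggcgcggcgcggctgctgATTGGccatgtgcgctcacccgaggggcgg
In Abca1 the repeat begins 67 bases and the E-box 147 bases before the start. Srebf1 has 3 windows in the table, for different annotated starts. The repeat was found in 1 of the 3, the window shown, where it begins 182 bases and a CCAAT match 30 bases before the start. The repeat was found in 2 of the 27 listed genes with a window, beside 0.707% of 27025 genes. A stricter pattern, with an A before the leading GGTNA, matched none of the 27 and 0.229% of all genes, and its outer A was dropped after that was seen. The looser pattern was thus chosen after a search of the same windows, so its share among the listed genes is no test. CACGTG was found in 6 of 27 listed genes (22.2%) and 6.86% of all genes. Some genes have several windows, and per window the shares were 15.8% and 6.02%.

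Npc1, the lysosomal membrane protein that exports cholesterol freed from lipoproteins, had a difference opposite in sign to those of Abca1, Apoe and Srebf1. Npc1 lies on chromosome 18, from 12322751 to 12369851 on the minus strand of GRCm39. Npc1 had 101.5, 95.1 and 84.9 CPM in knockout hypothalamus, against 73.2, 81.4 and 74.3 CPM in wild-type hypothalamus. The lowest knockout library was above the highest wild-type library. The log2 fold change was 0.30 ± 0.08 (95% interval 0.12 to 0.48, a fold of 1.23), with an unadjusted p of 0.00373 and an adjusted p of 0.128 by edgeR. Of the exon bases of Npc1, 5.02% overlap Rmc1 on the opposite strand, and 20.6% of its longest GENCODE transcript matched Rmc1 transcripts, so part of its counts is uncertain. Its soluble partner Npc2 had 77.8, 72.6 and 81.1 CPM in knockout and 73.7, 76.6 and 81.1 CPM in wild-type hypothalamus, a log2 fold change of 0.00 ± 0.07.

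For the other transport genes the 95% interval included 0. Cyp46a1, the neuronal hydroxylase that turns cholesterol into an oxysterol able to leave the brain, had 106.5, 108.9 and 103.4 CPM in knockout hypothalamus and 108.1, 96.3 and 102.1 CPM in wild-type hypothalamus, a log2 fold change of 0.06 ± 0.07 with an interval of -0.09 to 0.20. Soat1, which esterifies cholesterol for storage, had -0.08 ± 0.09, and Stard4, which carries sterol between membranes, had 0.08 ± 0.07. Apart from the 6 genes with an unadjusted p under 0.05, the remaining 27 genes had adjusted p between 0.419 and 0.999.

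**Figure D5:**
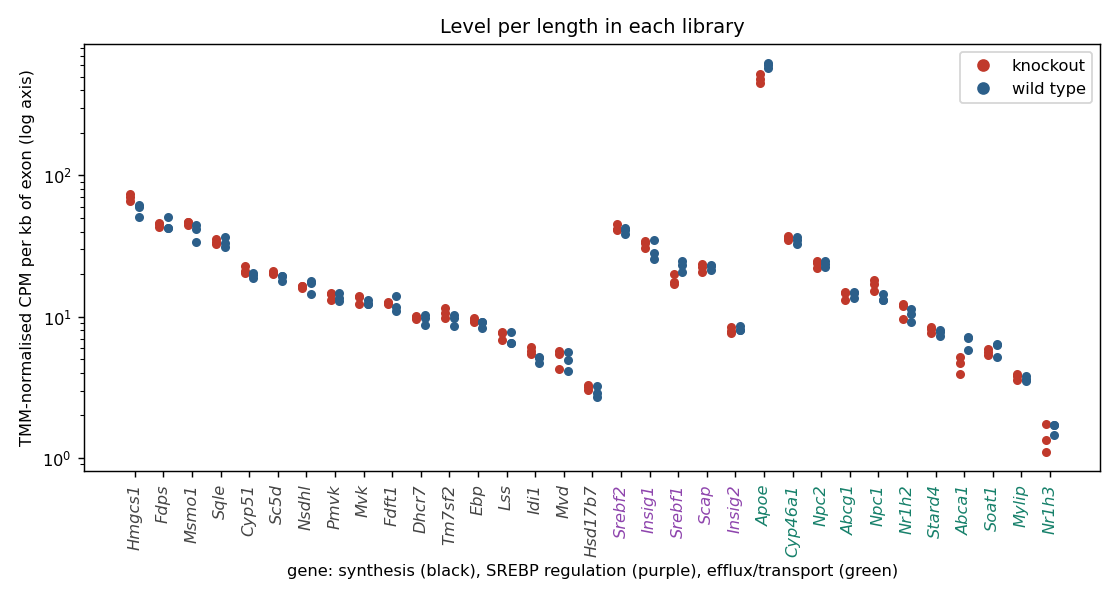
TMM-normalised CPM per kilobase of exon (y axis, log scale) of the 33 genes (x axis, by subgroup) in each knockout and wild-type library. Apoe is highest, at 484 in knockout and 600.0 in wild-type hypothalamus, and Nr1h3 lowest, at 1.40 and 1.62 CPM per kb; for most genes the points of the 6 libraries nearly coincide.

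Levels per length ranged over 370.0-fold between Nr1h3 and Apoe in wild-type hypothalamus. Below Apoe stood Hmgcs1, at 70.2 CPM per kb in knockout and 57.4 CPM per kb in wild-type hypothalamus, Msmo1 at 46.1 and 40.1, Fdps at 44.8 and 45.0, and Srebf2 at 42.6 and 40.6. Cyp46a1 followed at 36.1 CPM per kb in knockout and 34.7 CPM per kb in wild-type hypothalamus. Replicates were close: the coefficient of variation of CPM over 3 libraries had a median of 5.53% in knockout and 8.23% in wild-type hypothalamus.

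Other genes of the pathway were read from the same fit. Of 62 further genes of synthesis, uptake, efflux, oxysterol metabolism and LXR action, 60 were tested and 0 passed the adjusted threshold in edgeR; 7 (11.7%) had an unadjusted p under 0.05, 3 higher and 4 lower, beside 13% of all genes. DESeq2 called 2 of them, Osbpl1a and Pltp, and limma-voom called 0. The 2 genes not tested were Idi2 and Soat2, with counts of at most 2 and 7 in any library. The 4 with the lowest p were Lipa, Pltp, Spring1 and Osbpl1a. Lipa, the lysosomal lipase that frees cholesterol from its esters upstream of Npc1, had 38.6, 37.0 and 35.7 CPM in knockout hypothalamus, against 28.5, 33.5 and 31.4 CPM in wild-type hypothalamus (log2 fold change 0.25 ± 0.08, adjusted p = 0.18, edgeR). Pltp, a phospholipid transfer protein and LXR target, had 36.8, 43.8 and 37.4 CPM in knockout hypothalamus, against 63.1, 51.8 and 44.0 CPM in wild-type hypothalamus (-0.43 ± 0.13, adjusted p = 0.2). In both genes the groups did not overlap. Spring1, needed for SREBP activation, had -0.25 ± 0.08, and Osbpl1a, an oxysterol-binding protein relative, had 0.41 ± 0.13.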

How the data were processed

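Hypothalamus RNA was extracted with RNeasy and libraries were made with TruSeq, per the labels. The authors deposited 1 table of raw read counts per gene for 6 libraries; per the file headers, fragments overlapping RefSeq exons of mm39 were counted with featureCounts 2.0.0, with no option for strand, while the submitters' processing notes name STAR 2.7.10a and featureCounts 2.0.3. Without strand, opposite-strand genes sharing exon bases cannot be told apart. Groups follow the genotype labels.

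The counts were tested with edgeR 4.0.16 in R 4.3.3 (TMM scaling, filterByExpr with a minimum count of 10, robust quasi-likelihood F-test, genotype only, Benjamini-Hochberg adjustment over 20257 genes, threshold 0.05). A run on simulated counts held only changes of at least 0.5 on the log2 scale, so it does not show how well smaller differences are found. An error after a log2 fold change is its SE, and intervals are 95%. Library totals were 36613507 to 46755553, and the common biological coefficient of variation was 12.3%. With 3 against 3, an exact permutation test cannot go below 0.1, so none was used. CPM per kb divides by the deposited exon length. Alternatives were DESeq2 1.42.0, limma 3.58.1 voom with and without quality weights, RLE factors, library totals, other filters, a replicate block and leaving libraries out. No library was a duplicate: the chi-square per degree of freedom between libraries of a group was at least 8.01.

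Members, marker lists and pathway lists were chosen with earlier results of these data known. All 33 members are named; library values are given for those with p under 0.05, an absolute log2 fold change of at least 0.5, the highest level per length of each subgroup, or nearest the adjusted threshold, and up to 4 other pathway genes with the lowest p. Library values of further genes, and the patterns searched in promoters, were chosen after values were seen. RefSeq windows were matched by symbol for 27 of 33 members. Shared transcript stretches are BLAST matches of at least 95% identity and 100 bases, and are not given for every gene that has them.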

Additional observations from a re-analysis of the deposited data

How the results depend on the processing

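Of the 33 genes, 0 passed the adjusted threshold with edgeR. Without a filter on low counts 5 did (966 of all genes, 2.65%) and with DESeq2 5 did (821 of all genes): Abca1, Apoe, Srebf1, Npc1 and Hmgcs1 each time. With limma-voom and sample quality weights 1 did (Apoe; 401 of all genes). Numbers shared by knockout and wild-type libraries are not stated to pair them, so they were not taken as pairs. Deviations from the group means correlated at -0.20, 0.41 and 0.25 for same-numbered libraries, and from -0.46 to 0.19 for the others. These values do not settle whether libraries are paired. With a replicate block in edgeR, 155 genes (0.765%) were called, and 1 of the 33, Abca1 (adjusted p = 0.0129). Srebf1 (0.0502) and Hmgcs1 (0.0568) were just above the threshold, and 9 of the 33 had an unadjusted p under 0.05. Leaving out each replicate in turn gave 0 to 1 of the 33 (1, Abca1, without wild-type 2) and 36 (without knockout 1) to 260 (without knockout 2) of all genes. All genes called were 66 with library totals alone, 84 with at least 1 CPM in 3 libraries, 103 with limma-voom and 29 without both first replicates. Of the 60 further pathway genes, 2 passed without the filter (Pltp and Rxrg), 2 with DESeq2 (Osbpl1a and Pltp), and 0 to 1 with a replicate left out. Adjusted p over the 15 alternatives ran from 1.84e-05 to 0.239 for Abca1, 0.00129 to 0.778 for Apoe, 0.00515 to 0.399 for Srebf1, 0.0136 to 0.94 for Npc1, 0.0234 to 0.705 for Hmgcs1 and 0.247 to 0.999 for Idi1, and all 6 kept their sign in each. The sign of 12 other genes differed in at least 1 alternative, none of them called. The median log2 fold change ran from 0.03 to 0.09 for the 33 genes and 0.04 to 0.14 for the synthesis enzymes. The cause of these differences was not tested. The lowest count of any listed gene in a library was 111, so depth limits Nr1h3 most.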

Other observations

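The RXR genes encode the receptors that pair with LXR, and 2 of them, chosen after their values were seen, had lower values in knockout hypothalamus, while Rxrb did not. Rxrg had 17.1, 17.3 and 20.1 CPM in knockout hypothalamus, against 28.6, 19.0 and 26.2 CPM in wild-type hypothalamus, with wild-type 2 just below knockout 3. Its log2 fold change was -0.44 ± 0.15 (unadjusted p = 0.017, adjusted p = 0.245, edgeR). Rxra had 66.6, 59.1 and 62.1 CPM in knockout hypothalamus, against 76.5, 63.6 and 71.1 CPM in wild-type hypothalamus, a log2 fold change of -0.17 ± 0.08 (adjusted p = 0.425). Rxrb had 53.6, 50.4 and 48.5 CPM in knockout hypothalamus and 48.5, 46.2 and 47.7 CPM in wild-type hypothalamus, a log2 fold change of 0.10 ± 0.07 (adjusted p = 0.612). Lpcat3, a phospholipid-remodelling enzyme and LXR target, had 19.0, 18.9 and 17.2 CPM in knockout hypothalamus, against 20.0, 21.2 and 21.2 CPM in wild-type hypothalamus, with groups that did not overlap and a log2 fold change of -0.18 ± 0.08 (adjusted p = 0.351). Scd2, from the same list, had 2939, 2646 and 2805 CPM in knockout hypothalamus, against 2503, 2411 and 2634 CPM in wild-type hypothalamus. Its groups did not overlap either, in the opposite direction, with a log2 fold change of 0.15 ± 0.08 (adjusted p = 0.494, edgeR). The groups overlapped for Scd1, Fasn, Acaca, Arl4c and Smpdl3a, with log2 fold changes from -0.045 to 0.061. Over the list of 10 LXR partners and targets, 6 had lower values and 4 higher ones, with a median of -0.02.

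Apoc1, the neighbour of Apoe in the apolipoprotein cluster, had 2.74, 5.95 and 3.53 CPM in knockout hypothalamus, against 10.4, 10.3 and 4.52 CPM in wild-type hypothalamus. Knockout 2 stood above wild-type 3, and the log2 fold change was -1.05 ± 0.43 (adjusted p = 0.396, edgeR). Apoc1 had 115 to 236 counts in knockout and 188 to 425 counts in wild-type libraries.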
